A study of Mus musculus with 2 samples.

Results

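The genes described here make, modify, degrade or sense sphingolipids and gangliosides. They are 37 listed mouse genes of the 55536 in the gene table, taken by symbol from the transcript tables and linked to the gene tables by gene identifier, and all 37 were found in both libraries. The data are total RNA-seq of hippocampal tissue from female mice of strain 5xFAD/CAST, adults of 8 to 10 months, in 2 biological replicates. 5xFAD mice carry human transgenes with familial Alzheimer mutations under the neuronal Thy1 promoter, and CAST is a wild-derived inbred strain. Both samples carry the transgenic background, with 300 ng as the labelled RNA input and an ERCC spike-in mix, and no control group stands beside them. The biosample record differs between the replicates but the donor record is shared, so it is not known whether they are separate animals, and each SD measures the spread between these 2 samples only. Their depth was 27816845 and 32316737 expected counts (reads assigned to genes in fractional shares). The deposited files name only mm10 and GENCODE M21, whether CAST sequence entered the reference is not given in the sources used here, and its part in any level was not tested.

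Sphingolipids are built on a long-chain base that serine palmitoyltransferase makes from serine and a fatty acyl-CoA. Ceramide synthases attach a fatty acid to it, and the resulting ceramide is the branch point to sphingomyelin, to galactosylceramide and sulfatide, and to glucosylceramide, from which gangliosides are built by adding galactose, N-acetylgalactosamine and sialic acid. In the brain, galactosylceramide and sulfatide are lipids of the myelin made by oligodendrocytes, complex gangliosides are abundant on neurons, and sphingosine phosphate is a signal read by G protein-coupled receptors.

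Levels are given as TPM, a count divided by transcript length and scaled to the same total in each library, the only scale on which genes are compared with each other. Where a pair of values is given, replicate 1 comes first. Gene levels come from the gene table. Transcripts were deposited in both RSEM's and kallisto's column layouts, which divide shared reads among transcripts separately, and transcript values are from the RSEM layout unless the kallisto layout is named. The posterior SD, deposited with the counts, is the authors' value for how uncertain such a division is. Detection required 1 TPM or more in each library. By that rule 36 of 37 genes were detected, against 60.2% of 22015 nuclear protein-coding genes, and only Sgms2 was not. The 37 genes were chosen with earlier results of these data known, so these shares come from unlike lists and nothing is concluded from their difference. The median over the 37 genes was 17.4 and 16.8 TPM, against 15.3 ± 0.0566 TPM (SD, n = 2) for detected protein-coding genes, and 20 of the 37 genes lay above that value by their mean. By mean level, 11 genes reached 30 TPM, 18 lay from 10 to 30 TPM and 8 lay below 10 TPM. The genes thus occupied the middle of the hippocampal range. By mean level in the gene table the highest was B4galnt1 at 48.3 ± 1.86 TPM, and the lowest was Sphk1 at 1.33 ± 0.0212 TPM. In replicate 1 St8sia3 (47.3 TPM) lay above B4galnt1 (47.0 TPM), and in replicate 2 Sgms2 (0.91 TPM) lay below Sphk1 (1.31 TPM). In the kallisto layout St8sia3 had the highest mean, at 44.5 TPM, and Sgms2 the lowest, at 0.981 TPM. Summed over the 37 genes the level was 776 and 778 TPM.

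**Figure D1:**
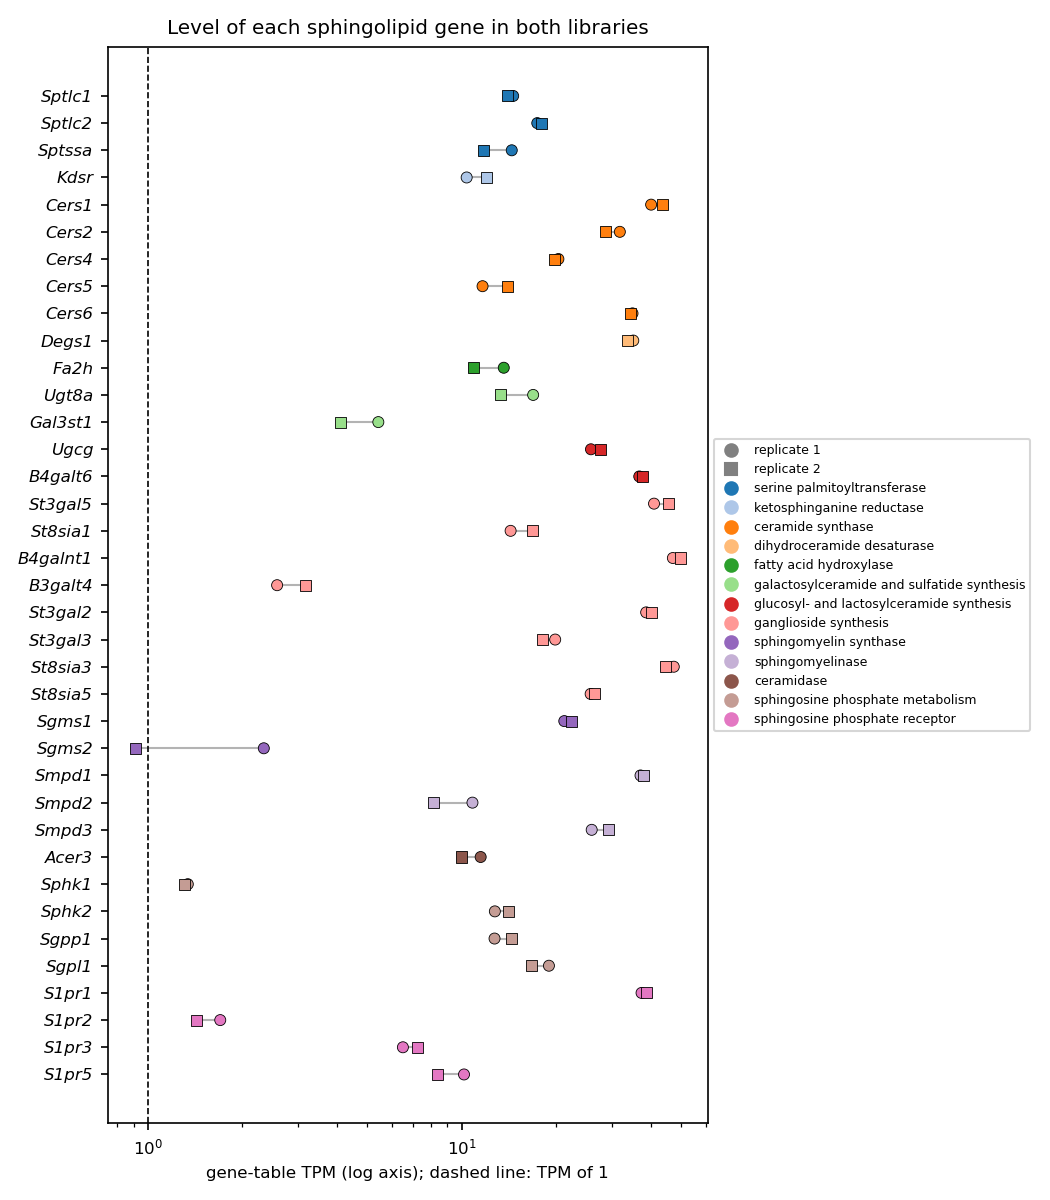
Gene-table TPM of each of the 37 genes on a log axis, circles for replicate 1 and squares for replicate 2, coloured by role, with a dashed line at a TPM of 1. Both symbols of 36 genes lie to the right of the line, and those of Sgms2 lie on either side of it, at 2.34 and 0.91 TPM.

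The difference between the libraries is given as the log2 ratio of replicate 2 over replicate 1 of counts scaled with TMM, a scaling by the bulk of genes. Of the 37 genes, 17 were lower and 20 were higher in replicate 2, where 50.4% of all genes with at least 10 counts and 47.3% of the protein-coding ones were lower. Spike-in scaling moved the ratios up by an offset of 0.072, slightly less for genes of few counts, and turned 3 genes (Sptlc1, Degs1 and Sgms1) from lower to higher, and library size alone turned 1, Cers6, from higher to lower. The median log2 ratio was 0.016, and at least 100 counts were reached by 34 of the genes. Among these 34 genes, 0 passed a 2-fold difference, against 0.29% of all genes at that count, with Sgms2 just inside at -0.999. Library size alone in place of TMM put Sgms2 past it, at -1.01, and so did a smaller prior count of 0.5, also at -1.01. An exact 95% binomial interval on the share of a gene's reads in replicate 2 covers counting error only. It lay below 0 on the log2 ratio scale for 10 of the 34 genes (10.9% of protein-coding genes at that count), above 0 for 4 (18.7% of them), so off 0 for 14 in all (29.7% of them), and held 0 for 20. Spike-in scaling put the interval below 0 for 8 of the 34 genes (5.19% of protein-coding genes at that count) and above 0 for 17 (36.4% of them), an alternative chosen after the data were seen. Statements below on intervals refer to TMM. With 1 group and no control, no test between conditions exists, and all differences below are between the libraries.

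Markers of the cell types in the tissue differed between the libraries as well. Oligodendrocyte markers, 10 of 10, were lower in replicate 2 (median log2 ratio -0.32), and their summed level was 2069 and 1679 TPM. Neuron markers, 7 of 7, were higher in replicate 2 (median log2 ratio 0.14), with summed levels of 2375 and 2589 TPM. All 6 astrocyte and all 5 oligodendrocyte precursor markers were lower, with median log2 ratios of -0.096 and -0.029, but with spike-in scaling Gfap among the former and Pdgfra, Cspg4 and Gpr17 among the latter were higher. Of 7 microglial markers 6 were lower (median log2 ratio -0.17), and of 6 endothelial markers 4 were lower (-0.064), 1 of which, Cdh5, was higher with spike-in scaling. No marker was at 0 in either library, and all 6 genes of hippocampal subfields, such as Prox1 of the dentate gyrus at 26.1 and 27.4 TPM, were detected. In bulk tissue, fewer cells of a type and less RNA per cell cannot be told apart.

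Serine palmitoyltransferase, the first enzyme of the pathway, was represented by both large subunits and a small one. Sptlc1 (chr13:53332748-53377397, minus strand, mm10), a subunit that the active dimer needs, measured 14.6 and 14.0 TPM. Sptlc2 (chr12:87305058-87388355, minus strand), the subunit that carries the catalytic lysine, reached 17.4 and 17.96 TPM. By gene-table TPM both subunits lay within a narrow band and their libraries were close, but by scaled counts Sptlc2 was lower in replicate 2. On coding transcripts alone the mean level was 13.4 TPM for Sptlc1 and 5.7 TPM for Sptlc2. The small activating subunit Sptssa lay at 14.4 and 11.7 TPM, with a log2 ratio of -0.31 (counting interval -0.53 to -0.090). For Sptlc2 the scaled counts gave -0.21 (-0.34 to -0.081), while its TPM was the higher in replicate 2. It is 1 of 5 genes whose TPM and scaled counts differ in sign, since TPM also weighs the lengths of the transcripts to which the reads were given. Of Sptlc2's TPM 32.2% ± 5.47 lay on its protein-coding transcript Sptlc2-201, and the noncoding Sptlc2-202 and Sptlc2-205 held 28.4% and 24.7%, although Sptlc2-201 took most of the reads (79.1% of the counts). By mean TPM in the kallisto layout, Sptlc2-205, a noncoding transcript of 704 bases, led the gene at 5.26 and 6.69 TPM against 5.69 and 4.46 TPM for Sptlc2-201, so it led in replicate 2 alone. Kdsr, the reductase of the next step, stood at 10.4 and 11.97 TPM, with 62.3% of it on the coding Kdsr-201.

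The 5 listed ceramide synthases differ in the fatty acid they prefer. Cers1, which makes ceramide with stearic acid and is known from neurons, was the highest at 40.1 and 43.7 TPM. Cers6, which prefers palmitic acid, was measured at 35.0 and 34.5 TPM, and Cers2, which adds very long chain fatty acids and serves myelin, at 31.9 and 28.7 TPM. The order Cers1, Cers6, Cers2 was the same in both libraries. Cers4 stood at 20.3 and 19.8 TPM, and Cers5, another enzyme with a preference for palmitic acid, at 11.6 and 14.0 TPM. Within a library the Cers6 level was 3.003 times that of Cers5 in replicate 1 and 2.47 times in replicate 2. Cers1 was 1.26 and 1.52 times as high as Cers2. Cers1 was higher in replicate 2 by scaled counts, at a log2 ratio of 0.15 (0.062 to 0.23), and Cers2 lower at -0.21 (-0.33 to -0.093). The sum over the 5 synthases was 139 and 141 TPM.

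At Cers1 the division of reads among transcripts was uncertain, while the gene level was close in both layouts. Cers1 (chr8:70315775-70331592, plus strand) shares its messenger RNA with Gdf1, a growth factor gene encoded farther along the same transcript. Cers1-202, of 2711 bases, is annotated with the Cers1 reading frame of 1050 bases, and Cers1-203, of 2728 bases, with the Gdf1 frame of 1071 bases. Cers1-203 holds all of Cers1-202 plus 12 bases at the 5′ end and 5 at the 3′ end, and all 1349 bases of Gdf1-201 lie inside Cers1-202. The start codons lie in different exons, but the Cers1 frame ends in the same exon in which the Gdf1 frame starts. The starts of both frames are shown because one RNA carries them both, with the start codon in capitals (GENCODE M21 transcripts, mm10, plus strand, chr8:70315860-70315889 and chr8:70329982-70330011).
Cers1 frame: ATGgctgctgccgcggcgacccccaggctc
Gdf1 frame: ATGctccctgtctgccatcgtttttgcgac
The gene table put Gdf1 at 6.94 and 7.19 TPM, and the kallisto layout listed it at 0.000038 and 0.066 TPM. Within Cers1, Cers1-202 held 23.7 and 28.4 TPM and Cers1-203 held 13.3 and 13.6 TPM, with a posterior SD of 357 to 498 counts on each transcript. In the kallisto layout Cers1-202 held 28.3 and 21.2 TPM and Cers1-203 held 6.86 and 17.9 TPM. Cers1-203 was the higher in replicate 2 in both layouts, while the order of the libraries for Cers1-202 depended on the layout, and the gene sum in the kallisto layout, 40.9 ± 2.28 TPM, lay within 1 SD of the gene table's 41.9 ± 2.53 TPM. Cers1 was the only one of the 37 genes with a posterior SD of its gene count above 0, at 35.7 and 41.8 counts of 1946 and 2485.

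**Figure D2:**
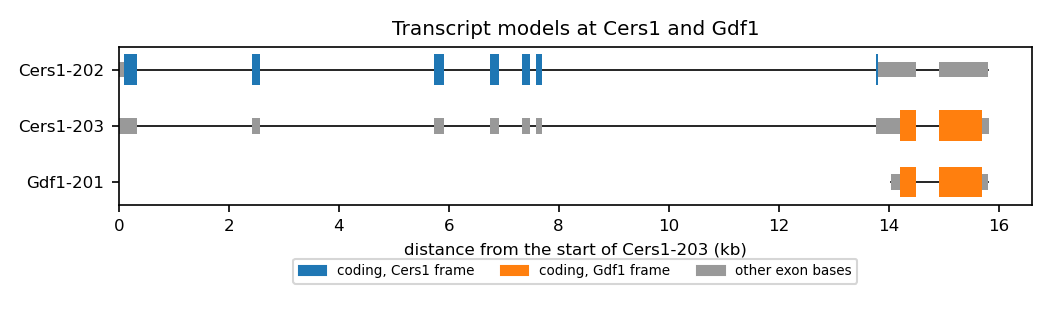
Exons of Cers1-202, Cers1-203 and Gdf1-201 along the genome, in kilobases from the start of Cers1-203, with coding bases in blue for the Cers1 frame, in orange for the Gdf1 frame, and other exon bases in grey. Cers1-202 and Cers1-203 have the same exons up to 12 bases at the start and 5 at the end, but different annotated frames, and Gdf1-201 covers only their last part.

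Cers6 had 2 coding transcripts that differ by a small exon. Cers6-206 has an exon of 24 bases, or 8 codons, at chr2:69105743-69105766 (plus strand, mm10), which lies in an intron of Cers6-201. The exon is shown in capitals between the 30 coding bases on each side, with the direct junction of Cers6-201 under it, since this is the only difference between their reading frames (GENCODE M21).
Cers6-206: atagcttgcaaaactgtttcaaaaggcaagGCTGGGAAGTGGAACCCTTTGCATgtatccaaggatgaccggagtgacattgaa
Cers6-201: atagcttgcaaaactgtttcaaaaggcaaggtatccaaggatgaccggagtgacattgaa
Cers6-201 held 16.8 and 17.2 TPM, and Cers6-206 held 10.5 and 11.5 TPM. Both transcripts were present in both libraries, with 48.9% and 31.7% of the gene's TPM. In the kallisto layout they held 50.7% and 28.5%. Cers6-201 ends in a far longer last exon (5841 bases against 203), and it was given 86.0% of the gene's counts, so the TPM shares above depend on the division by length.

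Cers4, a synthase of ceramides with stearic and longer acids, showed the lowest coding share in the RSEM layout. Of its TPM 20.8% ± 1.55 lay on protein-coding transcripts, 36.5% on Cers4-205 and 27.96% on Cers4-206, both annotated as retaining an intron. In the kallisto layout the coding share of Cers4 was 34.5%, above that of Sptlc2 (32.2%) and St8sia3 (32.3%). Cers4-205 held 7.31 and 7.32 TPM, nearly the same in both libraries, and the coding Cers4-201, of 9475 bases, held 4.44 and 3.89 TPM. By counts, which are not divided by length, 50.7% of the gene's reads were given to coding transcripts. Cers4 also overlaps 886 exonic bases of the pseudogene Vmn2r-ps89 and 214 of Gm36956 on the opposite strand.

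Degs1, the desaturase that turns dihydroceramide into ceramide, measured 35.2 and 33.8 TPM (chr1:182275772-182282804, minus strand), among the 11 genes above 30 TPM. Its libraries were close, with a log2 ratio of -0.056 (-0.17 to 0.058).

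The genes of galactolipid and myelin sphingolipid synthesis were all lower in replicate 2. Ugt8a, which adds galactose to ceramide (chr3:125865271-125938619, minus strand), reached 16.9 and 13.3 TPM. Its log2 ratio was -0.37 (counting interval -0.49 to -0.25). Fa2h, which hydroxylates the fatty acids of these lipids, lay at 13.6 and 10.9 TPM, with a log2 ratio of -0.40 (-0.57 to -0.23). Gal3st1, the sulfotransferase that makes sulfatide, stood at 5.42 and 4.11 TPM, with -0.41 (-0.74 to -0.095), and was the lowest of the group. S1pr5, the sphingosine phosphate receptor known from oligodendrocytes, was measured at 10.2 and 8.38 TPM, with -0.29 (-0.48 to -0.10). Together with Cers2, 5 of 5 genes were lower in replicate 2, against 47.3% of protein-coding genes with at least 10 counts. The counting interval of each lay below 0, against 10.9% of protein-coding genes with at least 100 counts. The median log2 ratio of the 5 was -0.37. The genes were chosen with earlier results of these data known, so nothing is concluded from these shares. All 5 were also lower with DESeq2 size factors, library size alone, spike-in scaling, TPM and the counts of the kallisto layout. Their summed level was 77.9 and 65.4 TPM.

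The oligodendrocyte markers moved with this group. All 10 were lower in replicate 2, with log2 ratios from -0.56 (Aspa) to -0.19 (Mag), and Mbp, the myelin basic protein gene, at 952 and 778 TPM. Their part in the difference of the group was not tested. Over the 22 genes outside this group and the ganglioside series, 11 were lower and 11 higher, with a median log2 ratio of 0.00063. Among these 22 the counting interval also lay below 0 for Sptlc2, Sptssa, Cers4, Sgms2 and Smpd2, and above 0 for Cers1, Smpd3 and Sgpp1. The log2 ratio of Cers4 was -0.11 (-0.21 to -0.0061). An interval below 0 was therefore not particular to the galactolipid and myelin group. The ratio of Ugt8a to Ugcg, the enzymes that send ceramide to galactosylceramide or to glucosylceramide, was 0.654 in replicate 1 and 0.482 in replicate 2 on the TPM scale.

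RefSeq promoter windows (GRCm38.p6) were given for 28 of the 37 genes, 45 windows in all. The 250 bases before the start of Ugt8a (chr3:125938653-125938902, minus strand) and of S1pr5 (chr9:21248444-21248693, minus strand) are shown because both genes were lower in replicate 2 together with the oligodendrocyte markers. Capitals mark the GC box, searched as GGGCGG on both strands with overlaps allowed.
Ugt8a: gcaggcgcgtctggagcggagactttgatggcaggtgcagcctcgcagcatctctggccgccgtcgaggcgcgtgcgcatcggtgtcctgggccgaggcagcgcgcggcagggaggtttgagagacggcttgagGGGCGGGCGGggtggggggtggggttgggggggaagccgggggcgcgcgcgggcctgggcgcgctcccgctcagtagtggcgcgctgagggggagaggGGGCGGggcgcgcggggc
S1pr5: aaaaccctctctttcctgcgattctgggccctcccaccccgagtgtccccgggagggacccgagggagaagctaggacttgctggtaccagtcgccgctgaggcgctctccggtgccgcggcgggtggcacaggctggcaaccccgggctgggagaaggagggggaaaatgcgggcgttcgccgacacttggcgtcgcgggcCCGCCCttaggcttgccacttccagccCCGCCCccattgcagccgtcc
The Ugt8a window held 3 GC boxes and the S1pr5 window 2. Of the other genes in the group, Cers2 had 2 in one window and 0 in the other, the 3 windows of Gal3st1 held 0, and Fa2h had no window. Over all genes listed here 25 of 45 windows held the motif (55.6%), against 32.7% of 32817 promoters of the same length. Some genes, such as Sgms2, Sphk1 and Sgms1, gave several windows each, and the 32817 promoters were not limited to detected genes, so these shares are of unlike sets. A match of these letters is a description of the sequence only.

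Glucosylceramide is the base of the gangliosides. Ugcg, which adds glucose to ceramide (chr4:59189257-59222833, plus strand), stood at 25.8 and 27.6 TPM. B4galt6, a lactosylceramide synthase of the brain, measured 36.7 and 37.5 TPM, the most deeply counted of the 37 genes (4120 and 4801 counts). The counting intervals of both held 0, with log2 ratios of 0.063 (-0.026 to 0.15) and 0.016 (-0.045 to 0.076).

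The sialyltransferases and glycosyltransferases that follow were spread widely in level. St3gal5, which makes the simplest ganglioside from lactosylceramide (chr6:72097592-72154571, plus strand), reached 40.9 and 45.4 TPM. It was higher in replicate 2, at a log2 ratio of 0.20 (0.11 to 0.30), and with TMM was the only gene of the series whose counting interval lay wholly above 0. With spike-in scaling, whose offset of 0.072 moves all genes up, 8 of the 10 genes of the series had an interval above 0. The exceptions were B3galt4 and St3gal3. Of protein-coding genes with at least 100 counts, 36.4% had an interval above 0 with that scaling. St8sia1, which adds the second sialic acid and opens the b series, lay at 14.3 and 16.8 TPM. B4galnt1, which adds N-acetylgalactosamine and competes with St8sia1 for the same substrate, stood at 47.0 and 49.6 TPM. The ratio of St8sia1 to B4galnt1 was 0.304 in replicate 1 and 0.339 in replicate 2. B3galt4, which adds the galactose after N-acetylgalactosamine, was measured at 2.58 and 3.17 TPM and rested on 75 and 105 counts. It was thus the lowest gene of the series by far, below every other gene of the series in both libraries.

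St3gal2, which puts the terminal sialic acid on complex gangliosides, stood at 38.7 and 40.2 TPM. St3gal3, which acts mostly on glycoproteins, measured 19.8 and 18.1 TPM. Its log2 ratio of -0.094 (-0.23 to 0.041) made it the only gene of the series that was lower in replicate 2. Of the enzymes that add further sialic acids, St8sia3 reached 47.3 and 44.4 TPM and St8sia5 measured 25.7 and 26.4 TPM. For St8sia3 35.7% ± 2.80 of the TPM lay on coding transcripts and 59.0% on St8sia3-204, a noncoding transcript of 1523 bases at 27.8 and 26.4 TPM, while the coding St8sia3-201 of 9747 bases held 15.2 and 16.5 TPM and most of the counts. St8sia3 and the antisense gene St8sia3os share 919 exonic bases, and without a stated strand setting their reads cannot be told apart. St8sia5 was led by St8sia5-202 at 15.7 and 16.2 TPM over St8sia5-201 at 7.23 and 7.97 TPM, both coding.

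Over the 10 genes of the series, 9 were higher and 1 was lower in replicate 2, where 47.3% of protein-coding genes with at least 10 counts were lower. With TMM the counting interval lay above 0 for 1 of the 10, against 18.7% of protein-coding genes with at least 100 counts. The median log2 ratio was 0.055, against a median of 0.016 over 12243 protein-coding genes with at least 100 counts. Their summed level was 299 and 309 TPM. The 7 neuron markers were all higher in replicate 2 as well, and their part in the small difference of the series was not tested. With spike-in scaling the median of the series was 0.13, and with library size alone it was 0.043. By TPM, St8sia3 was also lower in replicate 2, so the count of the series rests on the scale as well.

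**Figure D3:**
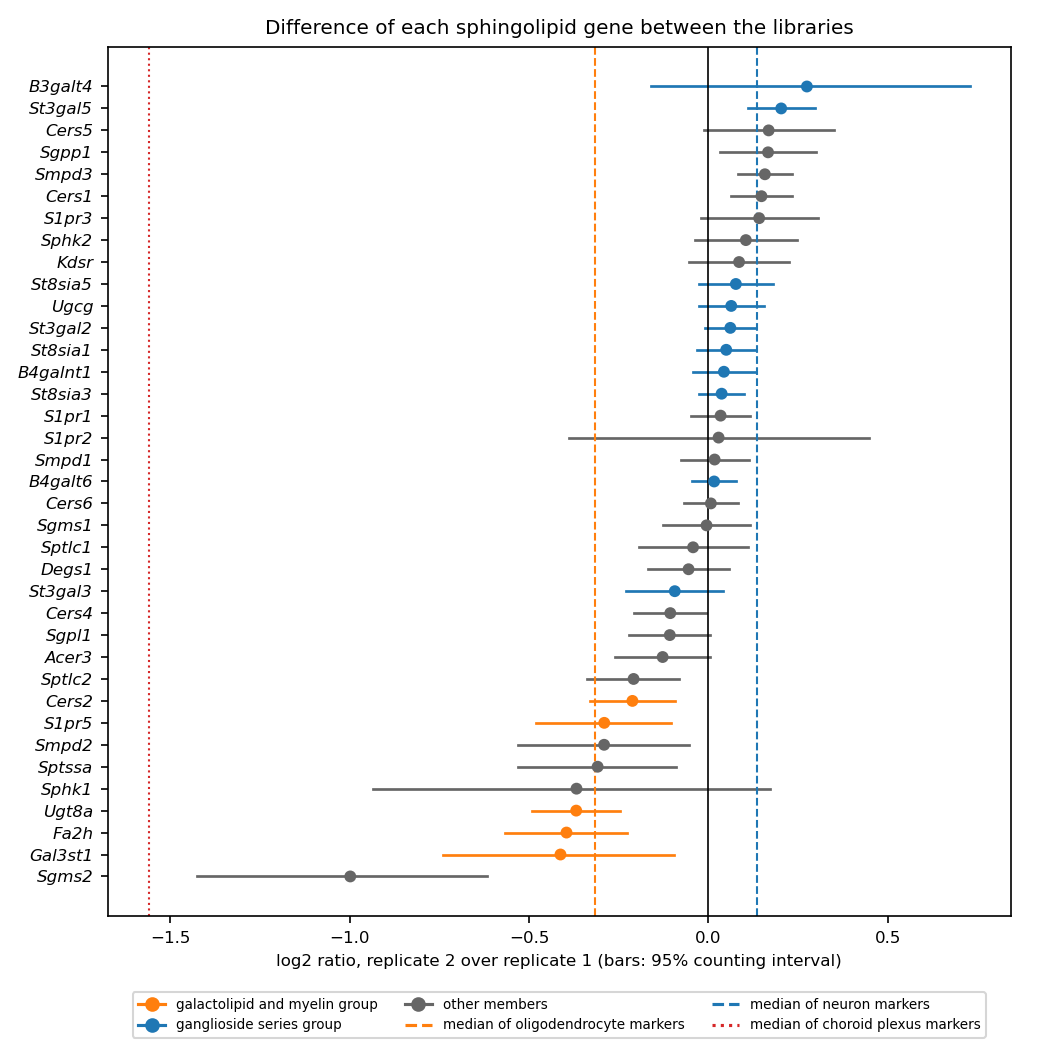
Log2 ratio of replicate 2 over replicate 1 of TMM-scaled counts for each of the 37 genes, with the 95% counting interval as a bar, and the medians of 3 marker lists as vertical lines. The galactolipid and myelin group (orange) lies between -0.41 and -0.21, the ganglioside series (blue) between -0.094 and 0.27, and Sgms2 at -0.999 is the lowest.

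The listed sphingomyelin synthase genes differed widely in level. Sgms1, the synthase of the Golgi, lay at 21.2 and 22.4 TPM, with a log2 ratio of -0.0054 (-0.13 to 0.12). Its coding transcripts held 78.0% and 60.1% of its TPM, and 59.3% and 34.7% in the kallisto layout. Sgms2, the synthase of the plasma membrane (chr3:131318985-131491411, minus strand), stood at 2.34 and 0.910 TPM. It was the gene that differed most between the libraries, with 144 and 82 counts and a log2 ratio of -0.999 (-1.43 to -0.62). Sgms2-203, a coding fragment of 364 bases, held 1.10 and 0.28 TPM of this level in the gene table's layout and 0 in the kallisto layout. The kallisto layout put Sgms2 at 1.19 and 0.773 TPM, with a log2 ratio of -0.59 on its counts. The direction was the same in both layouts, and its size was not.

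Markers of the choroid plexus, an epithelium next to the hippocampus, moved with Sgms2. Of 7 markers 7 were lower in replicate 2 (median log2 ratio -1.56), and the summed level was 27.8 and 11.99 TPM. A TPM of 1 in each library was reached by 4 of the 7 and none was at 0, with Folr1 at 5.08 and 0.70 TPM and Kl at 7.01 and 4.74 TPM. Their part in the difference of Sgms2 was not tested.

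The sphingomyelinases return sphingomyelin to ceramide. Smpd1, the acid enzyme of the lysosome (chr7:105554360-105558389, plus strand), was measured at 37.1 and 37.9 TPM, with a log2 ratio of 0.017 (-0.078 to 0.11). Smpd3, a neutral enzyme known from neurons, stood at 25.9 and 29.3 TPM and was higher in replicate 2 at 0.16 (0.082 to 0.23). Smpd2, the other neutral enzyme, measured 10.8 and 8.14 TPM and was lower in replicate 2 at -0.29 (-0.53 to -0.055). The neutral enzymes thus differed between the libraries in opposite directions, each beyond its counting error with TMM, whereas with spike-in scaling the interval of Smpd2 held 0. Smpd2 shares 905 exonic bases with Mical1 on the opposite strand, and 65.7% ± 2.71 of its TPM lay on the coding Smpd2-201.

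Acer3, an alkaline ceramidase that releases sphingosine from ceramide, reached 11.5 and 9.97 TPM. Only 38.4% ± 3.18 of this level lay on coding transcripts. Acer3-204, annotated for nonsense-mediated decay, led with 4.40 and 4.18 TPM, followed by the coding Acer3-201 at 3.06 and 2.76 TPM and by Acer3-203, also annotated for decay, at 2.63 and 1.53 TPM. Acer3-204 holds an exon of 164 bases that Acer3-201 lacks (chr7:98230450-98230613, minus strand, mm10). The exon is shown up to the stop codon it brings into the reading frame, after the last 30 bases of the exon before it, with the stop codon in capitals (GENCODE M21).
Acer3-204: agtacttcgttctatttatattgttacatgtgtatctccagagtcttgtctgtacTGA
The stop codon follows 25 coding bases of that exon. Acer3-201, whose last exon alone spans 10502 bases, took 73.1% of the gene's counts, and in the kallisto layout it led the gene with 3.91 and 3.25 TPM against 3.69 and 3.19 TPM for Acer3-204. Which of them led therefore depended on the layout.

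Sphingosine phosphate is made by kinases and removed by a phosphatase and a lyase. Sphk2, the kinase of the nucleus and mitochondria, lay at 12.7 and 14.1 TPM. Sphk1, the cytosolic kinase, stood at 1.34 and 1.31 TPM on 61 and 54 counts, with 16 annotated transcripts of which several held 0 counts in both libraries. Sphk2 was 9.51 and 10.8 times as high as Sphk1. Sphk2 shares 539 exonic bases with Dbp and 373 with Rpl18 on the opposite strand. Sgpp1, the phosphatase of the endoplasmic reticulum, was measured at 12.7 and 14.4 TPM and was higher in replicate 2 at a log2 ratio of 0.17 (0.032 to 0.30). Sgpl1, the lyase that breaks sphingosine phosphate down for good, stood at 18.9 and 16.7 TPM, with a log2 ratio of -0.11 (-0.22 to 0.0050). Its reads were split between Sgpl1-201 and Sgpl1-202 with a posterior SD of 192 to 195 counts, and their shares turned over between the libraries, at 9.05 and 5.81 TPM for Sgpl1-202 and 6.15 and 8.31 TPM for Sgpl1-201. In the kallisto layout both went the opposite way, at 6.23 and 11.8 TPM for Sgpl1-202 and 6.78 and 0.365 TPM for Sgpl1-201.

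Of the sphingosine phosphate receptors, S1pr1 (chr3:115710433-115715072, minus strand), which is known from astrocytes and endothelium, was the highest at 37.4 and 38.6 TPM. S1pr5, described with the myelin genes, and S1pr3 followed, S1pr3 at 6.49 and 7.23 TPM. S1pr2 was near the detection limit at 1.70 and 1.43 TPM, with 46.0% of its TPM on the noncoding S1pr2-204 of 419 bases, which rested on about 5 counts in each library. Within a library S1pr1 was 3.68 and 4.61 times as high as S1pr5, 5.76 and 5.34 times as high as S1pr3, and 21.98 and 27.01 times as high as S1pr2. The order S1pr1, S1pr5, S1pr3, S1pr2 was the same in both libraries. The log2 ratios of S1pr1 at 0.034 (-0.049 to 0.12), S1pr2 at 0.028 (-0.39 to 0.45) and S1pr3 at 0.14 (-0.021 to 0.30) had counting intervals that held 0.

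Over the 36 detected genes, the transcript with the highest mean TPM was the same in the RSEM and kallisto layouts for 33 and differed for Sptlc2, Acer3 and Sphk1. The median share of TPM on protein-coding transcripts was 93.1%, against 88.0% over detected protein-coding genes. It was 90% or more for 22 of the 37 genes, and 5 genes lay under 50%, Cers4, Sptlc2, St8sia3, Acer3 and S1pr2, where 10.6% of detected protein-coding genes did. By counts, as the mean of both libraries, 0 of 37 lay under 50%, but Cers4 lay at 52.4% and 48.99% in the single libraries. Only 5 genes (S1pr1, S1pr3, S1pr5, B3galt4 and B4galt6) have a single annotated transcript. They are among the 33 above, and their leading transcript could not differ between the layouts. The share of all detected genes with the same leading transcript was not counted. Cers1-203 counts here as coding, although its annotated frame is that of Gdf1.

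**Figure D4:**
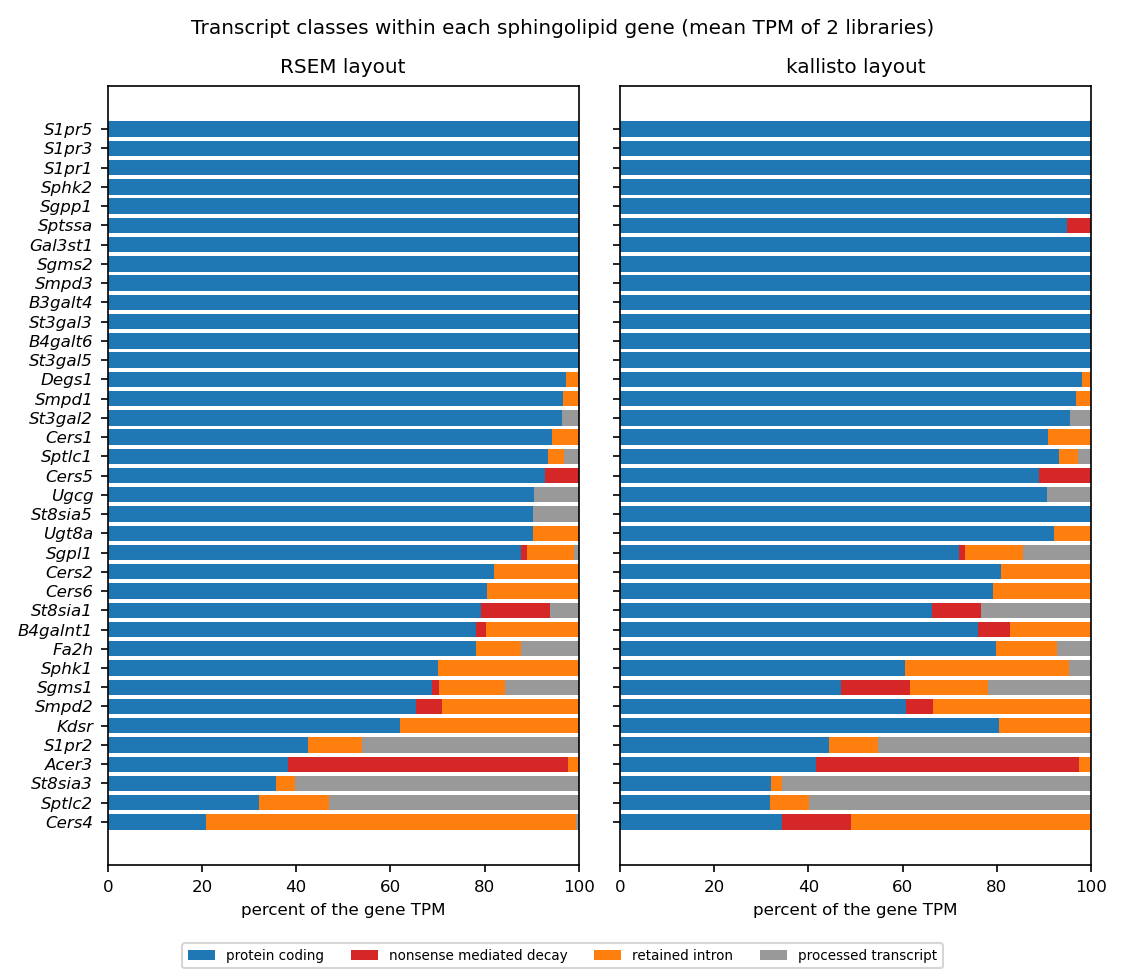
Share of each gene's TPM by annotated transcript class, as the mean of both libraries, in the RSEM layout (left) and the kallisto layout (right), sorted by the coding share in the RSEM layout. Cers4, Sptlc2, St8sia3, Acer3 and S1pr2 lie under 50% coding in both, and Sgms1 in the kallisto layout as well.

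The other genes of the pathway were taken from a list of 58 enzymes, carriers and regulators. Of these, 50 were detected, 31 were lower and 25 higher in replicate 2, and the median log2 ratio was -0.020. All 14 genes of glycolipid breakdown were detected, with 7 lower and 7 higher. Psap, the precursor of the saposins that present lipids to lysosomal enzymes, was the highest of all at 713 and 731 TPM. Hexa, which encodes a lysosomal hexosaminidase subunit that takes part in ganglioside breakdown, stood at 63.6 and 63.4 TPM. The summed level of the 14 breakdown genes was 1185 and 1199 TPM, most of it from Psap, against 299 and 309 TPM for the 10 genes of ganglioside synthesis.

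Of 8 further genes of ganglioside and glycolipid synthesis all were detected, with 4 lower and 4 higher. The highest were St6galnac6 at 45.0 and 50.4 TPM and St6galnac5 at 40.6 and 46.5 TPM, sialyltransferases that make branched gangliosides. All 5 genes of ceramide and glycolipid transfer were detected, led by Col4a3bp, the ceramide carrier to the Golgi, at 29.5 and 27.5 TPM. Of 6 genes of sphingosine phosphate handling 4 were detected, led by the lipid phosphatase Plpp3 at 108 and 112 TPM and by Spns2, a sphingosine phosphate exporter, at 39.6 and 36.95 TPM. Of 8 genes of very long chain fatty acid supply 7 were detected, with Tecr at 252 and 257 TPM and Hacd3 at 62.1 and 65.9 TPM. Samd8, a relative of the sphingomyelin synthases, stood at 27.5 and 30.8 TPM, above Sgms1 in the gene table. In the kallisto layout it stood below Sgms1, at 24.7 and 26.5 TPM against 28.3 and 28.9 TPM.

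The 8 genes that did not reach the detection limit in both libraries included the alternative subunits of serine palmitoyltransferase. Sptlc3 stood at 0.17 and 0.02 TPM and Sptssb at 1.54 and 0.78 TPM, both far below their counterparts Sptlc2 and Sptssa. Cers3, the synthase of skin ceramides, stood at 0.23 TPM in both libraries. S1pr4 stood at 0.29 and 0.35 TPM, Mfsd2b at 0.39 and 0.35 TPM and Elovl3 at 0.07 and 0.03 TPM. Acer1 and Enpp7 had 0 counts in both libraries in the gene table, while the kallisto layout listed Acer1 at 0.199 and 0.240 TPM and Enpp7 at 0. For the gene table, by counting error alone, that leaves room for 3 counts, which is 0.108 CPM in replicate 1 and 0.0933 CPM in replicate 2 (CPM being the count scaled to one library total). The inhibitors of serine palmitoyltransferase Ormdl1, Ormdl2 and Ormdl3 stood at 4.32 and 3.29, at 5.02 and 3.91 and at 19.5 and 20.2 TPM.

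The measured levels depended in part on how reads were assigned. The kallisto layout, summed to genes, gave 0.603 to 1.31 times the level of the gene table. The median was 0.927, against 0.953 over detected protein-coding genes. The kallisto layout was lower for 31 of the 37 genes, and the share over all genes was not counted. The ratio was lowest for Sgms2, followed by Kdsr at 0.731, and highest for Sgms1 at 1.31, Cers5 at 1.20 and Cers4 at 1.18. Exons of 14 of the 37 genes overlap another gene on the opposite strand. The protocol names a directional library kit, but the strand setting of the counting is not given in the sources used here. Exons of 2 genes overlap another on the same strand, Cers1 with Gdf1 and Sptssa with the microRNA gene Mir1892, which was listed at 0.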

How the data were processed

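Total RNA of 1 group with 2 replicates was sequenced. Per the file headers and the readme, mm10 and GENCODE M21 were used for both libraries. For genes and for transcripts the authors deposited an expected count, a TPM and a posterior SD, in RSEM's column layout. For transcripts alone the authors also deposited an estimated count and a TPM in kallisto's column layout. RSEM and kallisto here name these layouts only. Aligner and counting software: not given in the sources used here. All 55536 mouse gene identifiers matched the annotation. The 96 spike-in entries and 26249 other entries that name no gene held 0.481% and 0.454% of the expected counts and stayed out of library sizes. On mouse genes lay 27682992 and 32169915 expected counts, and the kallisto layout held 31222502 and 35819364 estimated counts. Reads carry no molecular identifiers, so intervals and floors cover counting error only.

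Levels are the deposited TPM. For ratios, expected counts, rounded to whole numbers, were scaled by TMM on genes whose mean count was 10 or more (edgeR 4.0.16, R 4.3.3), and log2 CPM used a prior count of 2. A difference was called at 2-fold with a mean count of at least 100. Counting intervals are exact Clopper-Pearson intervals. Estimated counts and TPM of the kallisto layout were summed to genes. Transcripts are named where they led a gene or held at least 20% of its TPM, or where a sequence or a split of reads is described, and pathway genes where they are among the 4 highest of their role or undetected. Some genes that this rule would name are not reported here. The ratio calculation was tested on simulated data. The 37 genes, the pathway and marker lists and all settings were chosen with earlier results of these data known, and the hippocampal subfield genes were added after the values were seen. Python 3.11.15, pandas 2.3.3, numpy 2.4.6, scipy 1.17.1 and matplotlib 3.10.9 were used. Alternatives were size factors of DESeq2 1.42.0, spike-in scaling and library size alone, TPM ratios, other filters and prior counts, and the kallisto layout.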

Additional observations from a re-analysis of the deposited data

How the results depend on the processing

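No paired analysis was possible because the study has 1 group, whose replicate numbers pair with no other group. The median level of the 37 genes, 17.7 TPM, was 16.2 TPM in the kallisto layout and 39.5 TPM when TPM was scaled over nuclear protein-coding genes alone, and ranged from 16.8 to 17.4 TPM with each replicate left out in turn. The number of genes detected was 36 and ranged from 36 to 37 with each replicate left out, and it was 32 at a TPM of at least 5. The number past a 2-fold difference was 0 with TMM, DESeq2 size factors, spike-in scaling, the kallisto layout and no count filter. A filter at a mean of 500 counts also gave 0, but it leaves out Sgms2 (144 and 82 counts). That 0 therefore says nothing about Sgms2. The number was 1, in each case Sgms2, with library size alone, with TPM ratios and with a prior count of 0.5. The number of genes lower in replicate 2, 17 with TMM, lay between 14 and 18 in all alternatives. Spike-in scaling gave 14 of all 37 genes. The 500-count filter also gave 14, but it counts only the genes that reach it. The number with a counting interval above 0, 4 with TMM, DESeq2 size factors and library size alone, was 17 with spike-in scaling, and the number below 0 lay between 8 and 12 in these scalings, which were added for the intervals after the data were seen. The median log2 ratio of the galactolipid and myelin group lay between -0.39 and -0.30, and that of the ganglioside series between 0.025 and 0.13. Their lower ends came from the 500-count filter, which leaves out Gal3st1 and S1pr5 in the former and B3galt4 in the latter. The leading transcript was the same in both layouts for 33 genes, for 31 to 32 with 1 replicate left out, for 34 among coding transcripts and for 36 by counts. Genes with a single transcript could not differ, nor among coding transcripts could genes with a single coding one. The level of 18 single genes moved by more than its SD between the layouts and that of 19 did not. Of the ratios of single genes under the other scalings 108 stayed within their counting interval and 3 moved beyond it, those of B4galt6, St3gal2 and St8sia3 with spike-in scaling. Genes near or under 100 counts (Sphk1, S1pr2 and B3galt4) are limited by depth.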
